A study of Mus musculus with 12 samples.

Results

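Primordial germ cell specification was examined through 9 genes, Prdm1, Prdm14, Tfap2c, Nanos3, Dppa3, Dnd1, Kit, Ifitm3 and Pdpn, taken by gene symbol from the 3 deposited tables. The tables hold 19996 genes in SL and in overexpression and 19718 in 2i, and all 9 genes were in each of them. Pdpn has a second row (ENSMUSG00000096951) listed at 0 FPKM in every library, with 0 mean reads, which is not used further. All 9 genes passed the filter on low values in all 3 tables.

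Polyadenylated RNA was sequenced from mouse embryonic stem cells, with 12 libraries making up 6 groups of 2. The Foxd3fl/fl;Cre-ER line carries floxed alleles of Foxd3, a forkhead transcription factor, and a recombinase that tamoxifen activates. Its cells were given 4-hydroxytamoxifen (2 µM) for 3 days (deleted, Foxd3-/-) or left untreated (floxed, Foxd3fl/fl), either in SL, which is 15% serum with leukemia inhibitory factor (LIF) on irradiated fibroblast feeders, or in 2i, a serum-free medium with LIF, the MEK inhibitor PD0325901 (0.4 µM) and the GSK3 inhibitor CHIR99021 (3 µM). Cells in which doxycycline induces Foxd3 (tetON Foxd3) and LF2 wild-type cells (WT) both had doxycycline (1 µg/µl) for 3 days in 15% serum and LIF without feeders. All floxed and deleted groups carry Cre-ER, no group had tamoxifen without the floxed allele, and the labels leave it unstated whether libraries within 1 group are separate cultures. The p-values therefore measure the spread between these libraries, which may be technical.

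Primordial germ cells are the embryonic precursors of eggs and sperm. In the mouse they arise from a few cells of the epiblast that receive BMP and WNT signals. These cells switch on Prdm1, which represses the somatic programme, Prdm14, which sustains pluripotency genes and lowers DNA methylation, and Tfap2c, which acts downstream of Prdm1. Embryonic stem cells share part of this programme, Prdm14, Tfap2c and Dppa3 among it, without being germ cells, so transcripts of single members do not mark germ cells. RNA from fewer cells of a type and less RNA per cell cannot be told apart in such bulk samples.

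Promoter sequences are shown for 3 genes, Nanos3 because its difference in SL was the largest of the 9, Pdpn because its difference in 2i was, and Prdm1 because its window held both forkhead motifs. All 3 choices rest on values of these data, that of Nanos3 through a rule on the size of the SL difference and the others made after the values were seen. Each is the 250 bases before the RefSeq start site on GRCm38.p6, 5′ to 3′ on the gene's strand. Capitals mark TGTTTAC, the forkhead core, TGTTTGC, a forkhead variant, and GCCNNNGGC, an AP-2 motif, on either strand.
Nanos3 promoter, chr8:84176553-84176802, minus strand: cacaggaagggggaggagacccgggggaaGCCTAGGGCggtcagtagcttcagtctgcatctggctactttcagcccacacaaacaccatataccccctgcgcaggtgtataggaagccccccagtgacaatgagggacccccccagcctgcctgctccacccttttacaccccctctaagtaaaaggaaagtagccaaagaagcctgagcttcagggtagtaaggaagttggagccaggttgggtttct
Pdpn promoter, chr4:143299565-143299814, minus strand: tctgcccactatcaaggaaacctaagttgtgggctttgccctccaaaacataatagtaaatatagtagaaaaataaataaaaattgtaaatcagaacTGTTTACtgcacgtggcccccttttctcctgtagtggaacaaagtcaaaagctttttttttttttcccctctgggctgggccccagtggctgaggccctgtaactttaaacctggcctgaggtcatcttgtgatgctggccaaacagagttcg
Prdm1 promoter, chr10:44458749-44458998, minus strand: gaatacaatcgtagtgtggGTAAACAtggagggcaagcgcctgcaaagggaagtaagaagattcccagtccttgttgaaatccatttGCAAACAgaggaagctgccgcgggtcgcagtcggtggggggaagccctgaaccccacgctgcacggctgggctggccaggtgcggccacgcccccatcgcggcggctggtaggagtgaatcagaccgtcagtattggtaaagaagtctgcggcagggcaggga
The Nanos3 window held 1 AP-2 motif, the Pdpn window 1 forkhead core and the Prdm1 window 1 forkhead core and 1 forkhead variant. Of 32851 RefSeq promoter windows of this length, 3.17% held the core, 4.3% the variant and 13.7% the AP-2 motif, and the 3 motifs do not share letters in the windows shown. A match is a description of the letters only. RefSeq windows were matched for 5 of the 9 genes, and Kit held 1 AP-2 match, seen in both of its overlapping windows, and the Ifitm3 window none of the 3. The other genes are Prdm14, Tfap2c, Dppa3 and Dnd1.

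FPKM, the authors' unit, scales fragments to transcript length and library size, and differences below are on log2(FPKM + 1), which understates the change of low genes. Foxd3 measured 1.72 ± 0.154 FPKM in SL deleted and 4.67 ± 0.2 FPKM in SL floxed libraries, and 51.6 ± 2.18 FPKM in tetON Foxd3 and 12.3 ± 2.52 FPKM in WT (SD, n = 2 each). In 2i it measured 2.26 ± 0.265 FPKM in libraries labelled deleted, against 2.47 ± 0.0658 FPKM for the floxed pair (SD, n = 2 each), and the authors' deposited table lists a Foxd3 fold of 1.7, higher in the libraries labelled deleted. The deletion label is therefore not borne out by Foxd3 RNA in 2i, and directions there follow the label. The authors' group mean reads summed to 24278900 in 2i labelled deleted and 27062500 in 2i floxed. In the serum groups they summed to between 52789800 and 54096100, and single-library depth is not known. All 8 stem cell markers were above 1 FPKM on average in every group. In SL, the condition with fibroblast feeders, 21 fibroblast markers summed to 389 to 424 FPKM in deleted and 237 to 287 FPKM in floxed libraries, against 16.6 to 28.3 FPKM in the 8 other libraries.

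In SL, the question was whether loss of Foxd3 moves these genes. Group means in deleted libraries were 8.89 times those in floxed libraries for Nanos3, 3.55 times for Tfap2c, 2.43 times for Prdm14 and 1.83 times for Dppa3. Prdm1, Kit and Ifitm3 lay between 1.18 and 1.46 times, and Pdpn at 0.759 times. Of the 9 genes 0 passed limma's adjusted threshold of 0.05 in SL, where 1 of 12024 genes did (0.00832%). At an unadjusted p under 0.05, 5 of the 9 were higher and 0 lower, against 6.07% and 3.05% of all genes. Both deleted libraries lay above both floxed ones for 7 of the 9 genes, against 19.7% of all genes tested, and below them for 1, against 17.3%. Without Nanos3, which passed the filter on low values only through the deleted group, these counts are 4 higher and 6 above of 8 genes. The median difference of the 9 was 0.44, against -0.01 over all genes tested.

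The SL calls turned on how the spread was estimated. Replicate differences of the SL deleted and floxed groups correlated at 0.605 over genes. With a replicate block 8 of the 9 genes passed in limma, all but Dnd1. The replicate numbers are not stated to mark a batch, and the block raised the calls over all genes too, with counts given at the end. With all 12 libraries in one limma fit, Tfap2c (adjusted p = 0.00302), Nanos3 (0.0116) and Dppa3 (0.0389) passed, where 1.23% of 12820 genes did so as higher. With p-values taken from the authors' deposited table and adjusted over all rows, Tfap2c alone passed, against 0.44% of all genes called higher. The number of genes called by limma over all genes was 74 without SL deleted replicate 1, 313 without SL deleted replicate 2 and 12 without SL floxed replicate 2, each fit assuming that the lone library varies like the others. Without SL floxed replicate 1 it was 1, as with all 4 libraries. Tfap2c passed in the first 3 of these fits (limma adjusted p = 2.27e-07, 3.31e-14 and 0.0466) and not without SL floxed replicate 1 (0.0790). Nanos3 passed without either deleted library (limma adjusted p = 0.00166 and 4.35e-11), and Prdm14 (0.00145) and Dppa3 (0.000100) without deleted replicate 2.

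In 2i the same contrast gave 6 genes that rose, Prdm1, Prdm14, Tfap2c, Nanos3, Dppa3 and Kit, and 3 that fell, Dnd1, Ifitm3 and Pdpn, in the libraries labelled deleted. Of all 11637 genes tested in 2i, 47.9% rose and 19.7% fell by the same limma threshold, 67.6% together, so a call alone says little here. Unadjusted, the 9 genes split the same way, 6 higher and 3 lower, against 49.8% and 20.7% of all genes, and the libraries separated upwards for 6 and downwards for 3, against 58.7% and 26.6%. Nanos3 passed the filter on low values only through the libraries labelled deleted. Without it, 5 of 8 genes rose and 3 fell, adjusted and unadjusted, and the libraries separated upwards for 5 and downwards for 3. The authors' deposited p-values called 5 of the 9 as higher and 3 as lower, against 20.6% and 20.2% of all genes. The median difference over all genes was 0.19, and Dppa3 at 0.14 lay below it. After median-of-ratios scaling, which sets that median to -0.02, 30.3% rose and 33.8% fell, and the 9 genes split into 5 that rose, 3 that fell and Dppa3, whose difference turned to -0.08 (limma adjusted p = 0.169). Pdpn moved most, at 0.231 times its floxed level, and 24 of the 11637 genes had a lower difference.

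Among the 2i calls, those of Dppa3, Dnd1 and Ifitm3 did not hold when 1 library was left out. Without deleted-labelled replicate 1 or 2 the limma adjusted p was 0.174 and 0.0737 for Dppa3, 0.0787 and 0.0738 for Dnd1 and 0.106 and 0.121 for Ifitm3. Without floxed replicate 2 it was 0.0862 for Dppa3 and 0.112 for Ifitm3. With all 12 libraries in one limma fit, Prdm1 (adjusted p = 0.00952), Prdm14 (0.0215), Tfap2c (0.00251), Kit (0.0489) and Pdpn (0.000984) passed, and the other 4 genes did not, Nanos3 at 0.0551 among them. Over all genes that fit called 32.7% as higher and 11% as lower.

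In overexpression tetON Foxd3 cells were compared with WT cells, both under doxycycline in serum without feeders. No tetON Foxd3 library was without doxycycline, so induction of Foxd3 and other differences between these cells cannot be told apart. Dppa3 fell to 0.188 times its WT level, the only 1 of the 9 genes past limma's adjusted threshold, where 1.65% of 11972 genes fell and 0.994% rose. In all 2.64% were called. After scaling, the 9 genes again had 0 that rose and 1 that fell, against 0.843% and 1.65%. With all 12 libraries in one fit 0 rose and 2 fell, against 6.29% and 7.18%, and the authors' deposited p-values gave 0 and 2, against 1.96% and 2.59%. A replicate block let 3 of the 9 pass in limma (Prdm14, Tfap2c and Dppa3) and raised the calls over all genes too, with counts given at the end. Unadjusted, 0 were higher and 2 lower, against 10.4% each way. Tfap2c stood at 0.476 times its WT level, short of that threshold (limma adjusted p = 0.0608). Both tetON Foxd3 libraries lay below both WT libraries for 5 of the 9 genes (Prdm1, Prdm14, Tfap2c, Dppa3 and Kit), against 22.8% of all genes, and above them for none, against 29.5%. The median difference of the 9 was -0.30, against 0.03 over all genes tested. The count of genes called over all genes was 144 without tetON Foxd3 replicate 1, 42 without WT replicate 1 and 90 without WT replicate 2, against 316 with all 4 libraries.

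**Figure D1:**
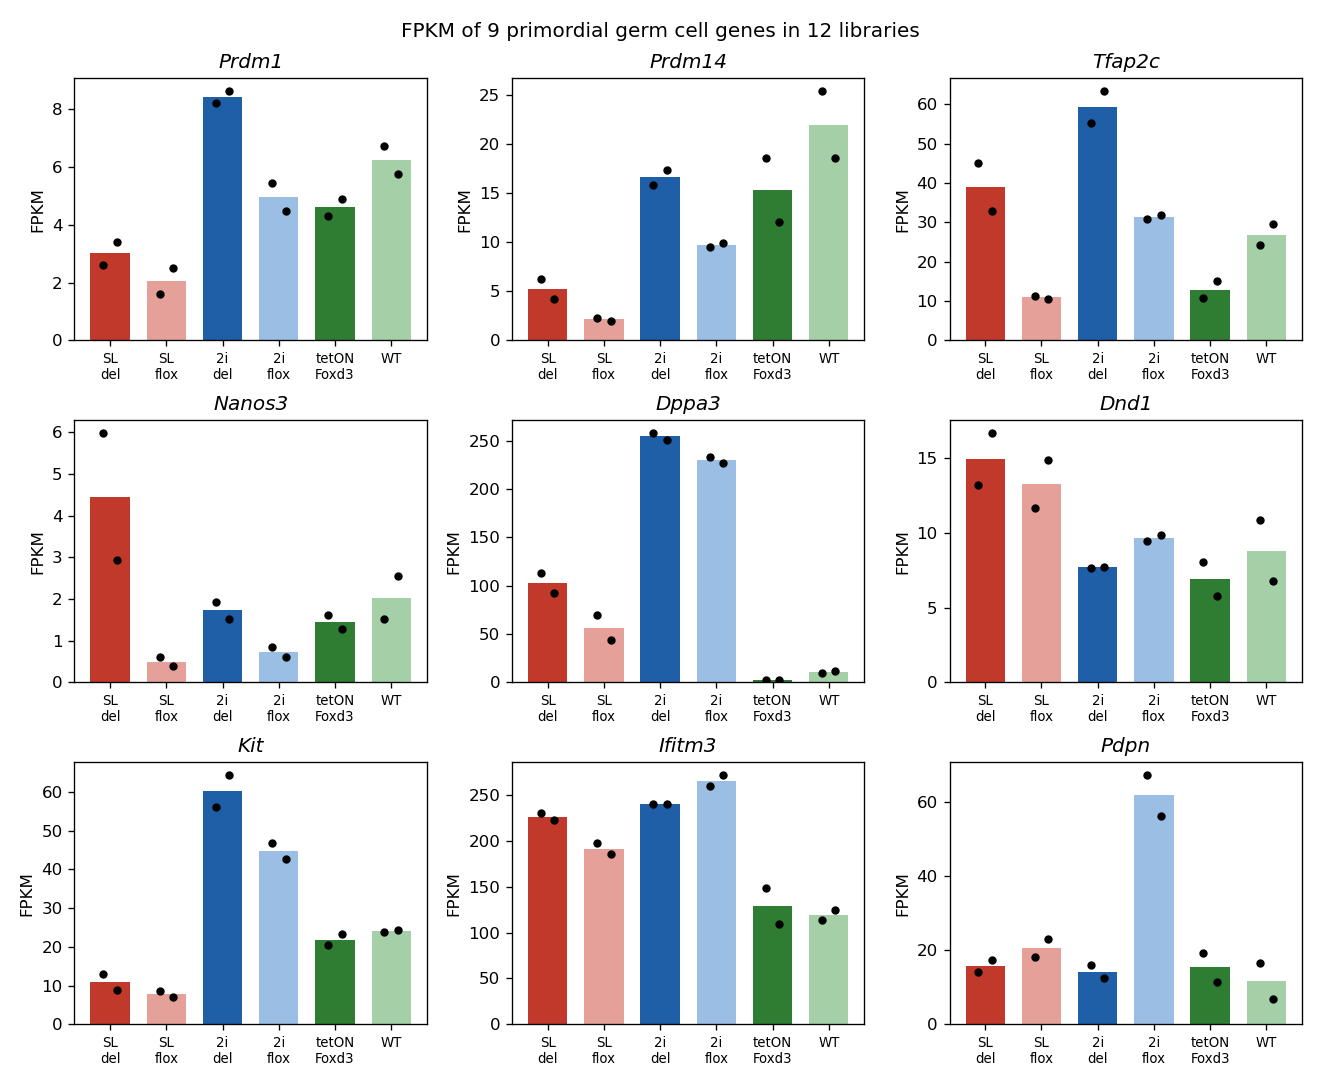
FPKM (vertical axes, each from 0) of the 9 genes in the 6 groups; bars are the means of 2 libraries and points the single libraries, replicate 1 on the left. Tfap2c is at 32.8 to 45.0 FPKM in SL deleted and 10.6 to 11.3 FPKM in SL floxed libraries, and Pdpn is highest in 2i floxed libraries.

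The first group of genes is the trio of transcription factors. Tfap2c (ENSMUSG00000028640, chromosome 2, 172549593 to 172558622, plus strand, GRCm38) encodes AP-2 gamma, which also acts in trophoblast. It measured 45.0 and 32.8 FPKM in SL deleted libraries, against 11.3 and 10.6 FPKM in SL floxed libraries. Neither deleted library came near the floxed ones, and the spread between the deleted libraries was the wider. The log2 difference was 1.72 (SE 0.17, 95% interval 1.32 to 2.13, limma adjusted p = 0.0873), and 10 of 12024 genes had a larger one. In 2i it measured 55.4 and 63.4 FPKM in libraries labelled deleted and 30.9 and 31.8 FPKM in floxed ones. That rise of 0.90 (SE 0.07, limma adjusted p = 2.71e-05) was 0.68 after scaling. Under doxycycline it measured 10.7 and 15.0 FPKM in tetON Foxd3 and 24.2 and 29.7 FPKM in WT libraries, groups that do not overlap. The difference of -1.02 (SE 0.19) passed with all 12 libraries in one limma fit (adjusted p = 0.00401), without tetON Foxd3 replicate 2 (limma adjusted p = 0.0295) and by the authors' deposited table (adjusted p = 0.0173).

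Prdm14 (ENSMUSG00000042414, chromosome 1, 13113457 to 13127163, minus strand, GRCm38) encodes a PR domain zinc finger protein needed for germ cell specification. It measured 6.27 and 4.22 FPKM in SL deleted and 2.30 and 2.02 FPKM in SL floxed libraries. The groups do not overlap, and the difference of 0.96 (SE 0.20, 95% interval 0.49 to 1.44) did not pass (limma adjusted p = 0.203). In 2i it rose to 15.8 and 17.4 FPKM in libraries labelled deleted, against 9.52 and 9.91 FPKM in floxed ones (difference 0.72, SE 0.08, limma adjusted p = 0.000136). In tetON Foxd3 it measured 18.5 and 12.02 FPKM, against 25.4 and 18.5 FPKM in WT. The higher tetON Foxd3 library lay just under the lower WT one, and the difference of -0.51 (95% interval -1.12 to 0.10) did not pass (limma adjusted p = 0.312).

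Prdm1 (ENSMUSG00000038151, chromosome 10, 44437177 to 44528501, minus strand, GRCm38) encodes BLIMP1, a repressor that is among the first markers of germ cell precursors and is also used in blood and endoderm lineages. It measured 2.61 and 3.40 FPKM in SL deleted and 1.61 and 2.49 FPKM in SL floxed libraries, groups that nearly touch. Its difference of 0.40 had a 95% interval from -0.09 to 0.89 (limma adjusted p = 0.664). In 2i it rose to 8.19 and 8.62 FPKM in libraries labelled deleted, against 5.42 and 4.46 FPKM in floxed ones (difference 0.67, SE 0.11, limma adjusted p = 0.000705). It measured 4.31 and 4.88 FPKM in tetON Foxd3 and 6.73 and 5.75 FPKM in WT libraries. Those groups do not overlap, with a difference of -0.37 (95% interval -0.76 to 0.01, limma adjusted p = 0.256). Across the 3 comparisons the 3 transcription factor genes had the same order of groups, higher in deleted or deleted-labelled libraries and lower in tetON Foxd3, though the tests differ in what they call. Before scaling, Dppa3 and Kit had that order too, and Nanos3 had it by its means, so it is not particular to these 3.

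The second group acts on RNA and chromatin. Nanos3 (ENSMUSG00000056155, chromosome 8, 84173731 to 84185217, minus strand, GRCm38) encodes an RNA-binding protein that keeps migrating germ cells alive. It measured 5.99 and 2.93 FPKM in SL deleted and 0.613 and 0.390 FPKM in SL floxed libraries. The deleted libraries differed widely between themselves and neither came near the floxed ones. The difference of 1.81 (SE 0.28, 95% interval 1.12 to 2.49, limma adjusted p = 0.149) was exceeded by 8 of 12024 genes. Nanos3 passed the filter of 1 FPKM only through the deleted group, in SL and in 2i. In 2i it rose to 1.94 and 1.53 FPKM in libraries labelled deleted, against 0.853 and 0.608 FPKM in floxed ones (difference 0.66, SE 0.12, limma adjusted p = 0.00141). It measured 1.61 and 1.27 FPKM in tetON Foxd3 and 1.53 and 2.55 FPKM in WT libraries, groups that overlap (difference -0.30, limma adjusted p = 0.507). The authors' deposited table gives it between 21.8 and 215 mean reads per group, the lowest of the 9 genes in every table.

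Dnd1 (ENSMUSG00000044595, chromosome 18, 36763671 to 36766214, minus strand, GRCm38), an RNA-binding partner of NANOS proteins, showed another pattern. It measured 13.2 and 16.7 FPKM in SL deleted and 11.6 and 14.8 FPKM in SL floxed libraries, which overlap (difference 0.16, 95% interval -0.25 to 0.58, limma adjusted p = 0.905). In 2i it fell to 7.67 and 7.71 FPKM in libraries labelled deleted, against 9.42 and 9.85 FPKM in floxed ones (difference -0.29, limma adjusted p = 0.0151). It measured 8.03 and 5.81 FPKM in tetON Foxd3 and 10.8 and 6.76 FPKM in WT libraries, also overlapping (difference -0.29, limma adjusted p = 0.579). Its transcript shares 138 identical bases with that of the neighbouring gene Wdr55 and is 93.7% identical over 959 bases to the pseudogene Dnd1-ps, which was not analysed here, so part of its reads may be shared.

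Dppa3 (ENSMUSG00000046323, chromosome 6, 122626410 to 122630272, plus strand, GRCm38), also called Stella, protects the maternal genome from demethylation in the zygote and marks early germ cells. It measured 114 and 92.9 FPKM in SL deleted and 69.2 and 43.8 FPKM in SL floxed libraries, with no overlap (difference 0.89, SE 0.22, limma adjusted p = 0.264). In 2i it measured 258 and 251 FPKM in those labelled deleted and 234 and 228 FPKM in floxed ones. The difference of 0.14 is smaller than the shift of all genes, and the authors' deposited table lists a fold of -1.07. Under doxycycline it fell to 2.02 and 2.02 FPKM in tetON Foxd3, against 9.95 and 11.5 FPKM in WT libraries. That difference of -1.95 (SE 0.15, 95% interval -2.33 to -1.58, limma adjusted p = 0.0145) was lower than those of all but 38 genes tested. The authors' deposited table gives -5.34-fold at 88.8 mean reads in tetON Foxd3 and 474 in WT. With no filter on low values the limma adjusted p was 0.0991. The Dppa3 transcript is 98.2% identical over 451 of its 833 bases to the pseudogene Dppa3-ps, which was not analysed here, so its level is uncertain.

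The third group lies at the cell surface. Kit (ENSMUSG00000005672, chromosome 5, 75574916 to 75656722, plus strand, GRCm38) encodes the receptor for the stem cell factor that guides migrating germ cells. It measured 12.9 and 8.98 FPKM in SL deleted and 8.53 and 6.98 FPKM in SL floxed libraries, just short of touching (difference 0.44, 95% interval -0.04 to 0.91, limma adjusted p = 0.593). In 2i it rose to 56.1 and 64.4 FPKM in libraries labelled deleted, against 46.9 and 42.6 FPKM in floxed ones (difference 0.42, SE 0.08, limma adjusted p = 0.00153), which was 0.20 after scaling (limma adjusted p = 0.0450). It measured 20.6 and 23.3 FPKM in tetON Foxd3 and 23.9 and 24.4 FPKM in WT libraries (difference -0.14, 95% interval -0.41 to 0.14).

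Ifitm3 (ENSMUSG00000025492, chromosome 7, 141009586 to 141010770, minus strand, GRCm38), known as Fragilis, is an interferon-induced membrane protein that marks germ cell precursors and is also made by many somatic cells. It measured 229.9 and 222 FPKM in SL deleted and 198 and 185 FPKM in SL floxed libraries (difference 0.24, limma adjusted p = 0.493). In 2i it measured 240 and 239.6 FPKM in libraries labelled deleted, against 259 and 272 FPKM in floxed ones (difference -0.14, limma adjusted p = 0.0266). It measured 148 and 109.6 FPKM in tetON Foxd3 and 114 and 125 FPKM in WT libraries, which overlap. Its transcript is 91.6% identical over 356 of its 678 bases to the pseudogene Gm6885, which was not analysed here, so part of its reads may be shared. Its group means spanned 2.22-fold over the 6 groups.

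Pdpn (ENSMUSG00000028583, chromosome 4, 143267431 to 143299564, minus strand, GRCm38) encodes podoplanin, a mucin-like glycoprotein used to sort germ cell precursors in culture and also found on fibroblasts. It measured 14.1 and 17.3 FPKM in SL deleted and 18.2 and 23.0 FPKM in SL floxed libraries (difference -0.37, 95% interval -0.77 to 0.02, limma adjusted p = 0.571). It was the 1 gene of the 9 with both SL deleted libraries below both floxed ones. In 2i it fell to 15.9 and 12.6 FPKM in libraries labelled deleted, against 67.3 and 56.3 FPKM in floxed ones. The difference of -2.04 (SE 0.11, 95% interval -2.31 to -1.78, limma adjusted p = 5.31e-06) became -2.26 after scaling, and the authors' deposited table lists -4.94-fold. It measured 19.3 and 11.6 FPKM in tetON Foxd3 and 16.7 and 6.85 FPKM in WT libraries, a spread within groups that leaves the difference of 0.44 with a 95% interval from -0.62 to 1.5.

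**Figure D2:**
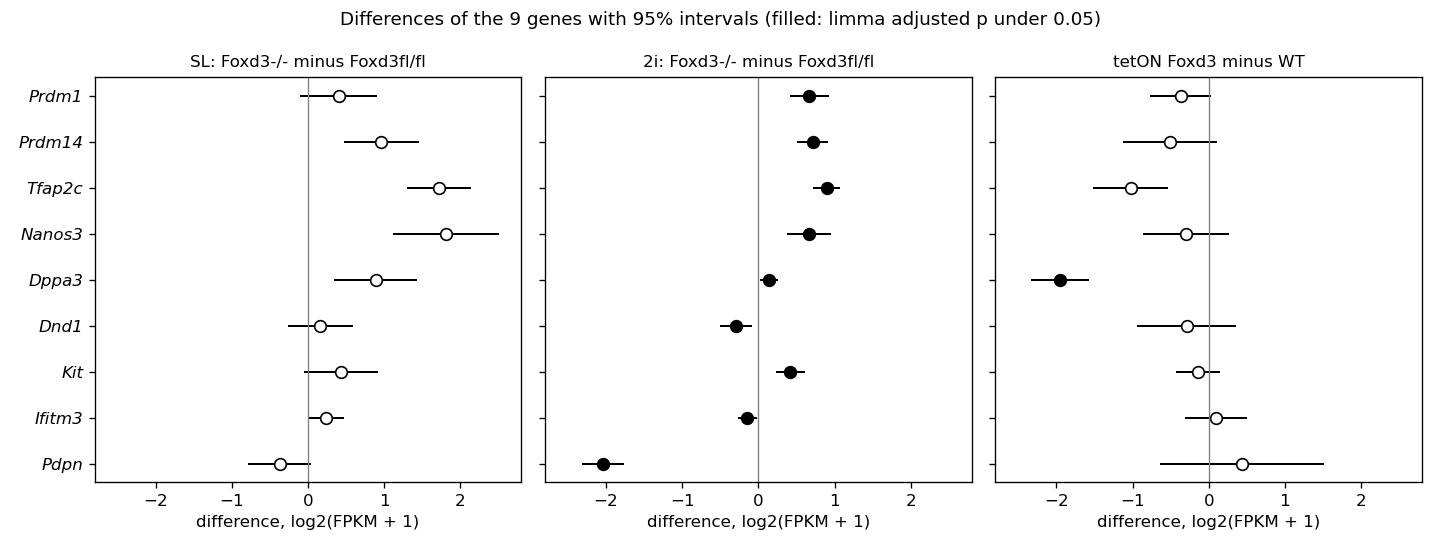
Differences on log2(FPKM + 1) (horizontal axes) of the 9 genes in the 3 comparisons, with 95% intervals from limma; filled points have an adjusted p under 0.05. In SL none of the 9 is filled, in 2i all are, and in overexpression Dppa3 at -1.95 is.

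**Figure D3:**
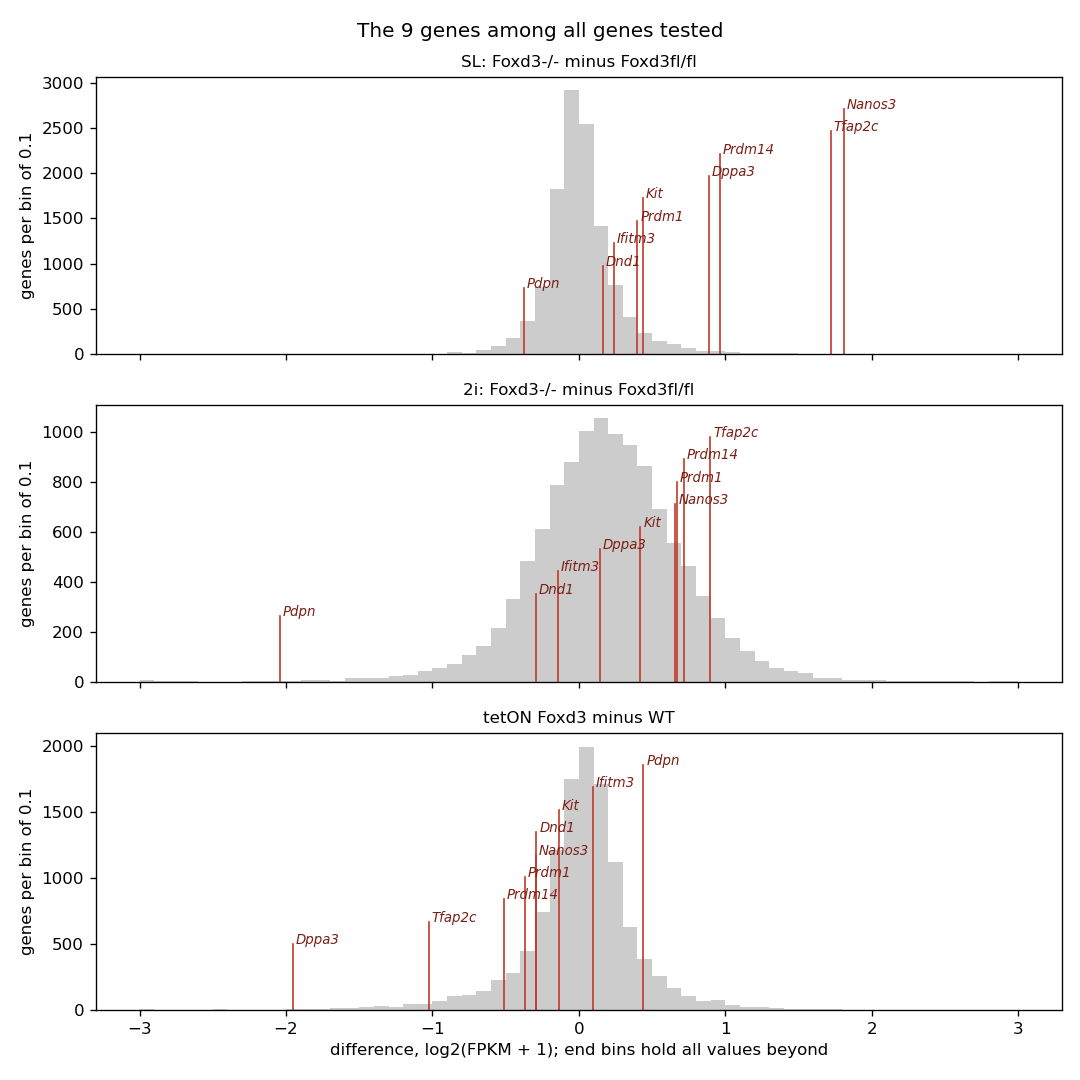
All genes tested (grey, number per bin of 0.1) by their difference on log2(FPKM + 1), with the 9 genes as red lines whose height only separates the names. In SL, Nanos3 and Tfap2c lie at 1.81 and 1.72, far out in the upper tail, while in 2i most of the 9 lie inside a distribution centred at 0.19.

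Whether the response to deletion differed between media was tested with an interaction term over 8 libraries. It passed for 4 of the 9 genes, against 23.9% of 12497 genes. All 4 were more positive in SL, a direction in which 5.55% of all genes were called. Of the 4, Nanos3 passed the filter only through the deleted and deleted-labelled groups, where it was high. Pdpn had the largest value (1.67, SE 0.23, 95% interval 1.15 to 2.19, limma adjusted p = 0.00485), from differences of -0.37 in SL and -2.04 in 2i. Nanos3 differed by 1.15 (limma adjusted p = 0.0421), Tfap2c by 0.82 (0.0207) and Ifitm3 by 0.38 (0.0216). The other 5 did not pass, and Kit, at 0.02, had a 95% interval from -0.51 to 0.54. The median over all genes was -0.17. After median-of-ratios scaling Dppa3 (0.95, limma adjusted p = 0.0445) and Dnd1 (0.64, 0.0484) passed as well. The shares above are from the unscaled fit, and the share of all genes called after scaling is not given here.

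Of these 4, the call of Pdpn held without any single library and the other 3 did not. The limma adjusted p of Tfap2c was 0.0822 and 0.0596 without 2i deleted-labelled replicate 1 and 2, and 0.0597 and 0.0857 without 2i floxed replicate 1 and 2. For Nanos3 it was 0.0584 without SL deleted replicate 1, 0.0768 without SL floxed replicate 2, 0.0861 and 0.147 without 2i deleted-labelled replicate 1 and 2, and 0.129 and 0.102 without 2i floxed replicate 1 and 2. For Ifitm3 it was 0.0656 without SL deleted replicate 1, 0.0826 and 0.0990 without 2i deleted-labelled replicate 1 and 2, and 0.0922 without 2i floxed replicate 2. Over all genes the count of 2987 became 1947 without SL deleted replicate 1, 1098 and 683 without 2i deleted-labelled replicate 1 and 2, and 1728 and 896 without 2i floxed replicate 1 and 2.

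Levels over the 6 groups are set side by side without a test, since the 3 tables may have been normalized separately. Dppa3 had the widest range, 126-fold from tetON Foxd3 to the 2i libraries labelled deleted, and no neighbouring groups in its order overlapped. Prdm14 ranged over 10.2-fold, with WT highest, SL floxed lowest, and only the 2i libraries labelled deleted and tetON Foxd3 overlapping as neighbours. Nanos3 ranged over 8.89-fold from SL floxed to SL deleted, and Kit over 7.77-fold from SL floxed to the 2i libraries labelled deleted with no overlap between neighbours. SL floxed was the lowest group for 5 of these genes, Prdm1, Prdm14, Tfap2c, Nanos3 and Kit. The 2i libraries labelled deleted were the highest for 4, Prdm1, Tfap2c, Dppa3 and Kit. Tfap2c in tetON Foxd3 overlapped with SL floxed, the pair at the bottom of its 5.42-fold range. Pdpn stood apart at 61.8 ± 7.80 FPKM in 2i floxed, while its 4 lowest groups, from SL deleted to WT, overlapped with their neighbours. Dnd1, over 2.16-fold, and Ifitm3 varied least.

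The genes whose profiles over the 12 libraries were most like those of the 9 were found by the root mean square difference of log2(FPKM + 1) after centring each gene, among 11873 genes of at least 1 FPKM on average. They were Sfmbt2 for Tfap2c (0.272, where Tfap2c itself varies by 0.835), St8sia1 for Prdm14 (0.237, own 0.996) and Baz2b for Prdm1 (0.131, own 0.551). For Nanos3 it was Nlrp9b (0.260, own 0.623), for Dnd1 Podxl (0.146, own 0.405) and for Dppa3 the predicted gene Gm9112 (0.614, own 2.33). For Kit it was BC024978 (0.213, own 0.997), for Ifitm3 Prpsap1 (0.123, own 0.452) and for Pdpn Bhlhe41 (0.343, own 0.835). Nlrp9b measured 2.67 FPKM in SL deleted, 0.430 in SL floxed, 1.01 in 2i labelled deleted, 0.563 in 2i floxed, 0.775 in tetON Foxd3 and 1.63 in WT libraries on average. Gm9112 averaged 0.06 FPKM in tetON Foxd3 and 0.272 FPKM in WT libraries, under the filter of 1 FPKM. These distances span all 3 tables, which may have been normalized separately, so a likeness may lie in levels between tables. None of the 9 had another of the 9 as its nearest gene, and the closest such pair by rank, Prdm14 with Prdm1, came at place 158.

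Genes around the 9 were taken from fixed lists. The inducing signals were 13 genes (BMP ligands, receptors and SMADs, Wnt3, T, Otx2 and Kitl). Of 12 tested in SL limma called 0, with 1 higher at an unadjusted p under 0.05. In 2i it called 7 of 9 as higher, where 47.9% of all genes were. After scaling the 2i count was 5 higher and 1 lower, against 30.3% and 33.8% of all genes. In overexpression limma called 0 of 9, with 5 higher and 1 lower unadjusted, against 10.4% each way. Of the 5, Kitl passed the filter only through tetON Foxd3, where it was high, and without it 4 were higher. The authors' deposited p-values, adjusted here, called 0 in SL, 5 as higher in 2i and 0 in overexpression. Bmp4, the ligand that induces germ cells, measured 15.8 ± 8.47 FPKM in SL deleted and 4.28 ± 2.42 FPKM in SL floxed libraries, and 2.96 ± 0.0123 FPKM in tetON Foxd3 and 10.3 ± 4.63 FPKM in WT (SD, n = 2 each; limma adjusted p = 0.282 and 0.0671). T, the mesoderm factor Brachyury, measured 1.88 ± 0.022 FPKM in 2i libraries labelled deleted and 0.458 ± 0.00547 FPKM in 2i floxed ones (SD, n = 2 each). It passed the filter only through the group where it was high, so its call in 2i is no independent one, and without it 6 of 8 inducing signals rose there. Otx2, which restrains germ cell entry, rose there to 10.5 ± 0.827 against 5.62 ± 0.0511 FPKM (SD, n = 2 each; limma adjusted p = 0.00015).

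Of 18 regulators and cofactors, 16 were tested in each comparison. In 2i 9 rose and 4 fell, against 47.9% and 19.7% of all genes. These became 6 and 7 after scaling, against 30.3% and 33.8%. In SL 0 were called, with 1 higher unadjusted and 0 by the authors' deposited p-values. In overexpression Nanog alone fell, where 1.65% of all genes did. Nanog, a pluripotency factor that can activate germ cell enhancers, fell to 252.5 ± 3.72 FPKM in tetON Foxd3 libraries and stood at 353 ± 19.95 FPKM in WT libraries (SD, n = 2 each; limma adjusted p = 0.0497). Lin28a, an RNA-binding protein that permits Prdm1 expression by blocking let-7, fell in 2i to 19.8 ± 1.68 FPKM in libraries labelled deleted, against 51.7 ± 0.25 FPKM in floxed libraries (SD, n = 2 each; limma adjusted p = 4.23e-06).

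Among 9 surface and enzyme markers in the tables, limma called 0 of 8 in SL, with 2 higher and 2 lower unadjusted and 0 by the authors' deposited p-values. In 2i 3 rose and 4 fell, against 47.9% and 19.7% of all genes. These became 2 and 6 after scaling, against 30.3% and 33.8%. In overexpression 1 fell, where 1.65% of all genes did. Fgfr3 and Itgb3, both among the 3 that rose, passed the filter in 2i only through the libraries labelled deleted. Alpl, the tissue-nonspecific alkaline phosphatase of germ cells and stem cells, fell to 18.4 ± 1.27 FPKM in tetON Foxd3 libraries and stood at 32.5 ± 2.54 FPKM in WT libraries (SD, n = 2 each; limma adjusted p = 0.0421), and rose in 2i to 152 ± 3.90 FPKM in libraries labelled deleted, against 106 ± 6.13 FPKM in floxed libraries (SD, n = 2 each; limma adjusted p = 0.000107). Itgb3, an integrin used to sort germ cell precursors, measured 1.03 ± 0.144 FPKM in tetON Foxd3 and 3.62 ± 1.2 FPKM in WT (SD, n = 2 each; limma adjusted p = 0.0638).

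Genes of later germ cells were tested as another list. Of 9 tested in SL limma called 0, with 0 higher and 4 lower unadjusted, against 6.07% and 3.05% of all genes. The authors' deposited p-values called 1 as lower. In 2i 3 of 8 fell and 0 rose, against 19.7% and 47.9% of all genes. After scaling 5 fell, against 33.8% of all genes. Stra8, the gene that starts meiosis, measured 2.56 ± 0.198 FPKM in SL deleted and 7.19 ± 0.451 FPKM in SL floxed libraries (SD, n = 2 each; limma adjusted p = 0.0873), and fell in 2i to 1.25 ± 0.0582 against 2.66 ± 0.343 FPKM (SD, n = 2 each; limma adjusted p = 0.000592). Mael, a piRNA pathway gene, fell in 2i to 5.44 ± 0.611 against 9.07 ± 0.682 FPKM (SD, n = 2 each; limma adjusted p = 0.000764). In overexpression Sycp3, a protein of the meiotic chromosome axis, rose to 85.3 ± 4.30 FPKM in tetON Foxd3 libraries and stood at 47.2 ± 8.38 FPKM in WT libraries (SD, n = 2 each; limma adjusted p = 0.0494), 1 of 8 tested. Before adjustment, 1 of them was higher and 2 were lower. Hormad1, another protein of that axis, measured 28.8 ± 3.78 FPKM in tetON Foxd3 and 64.5 ± 16.4 FPKM in WT libraries, a difference of -1.12 (SD, n = 2 each; limma adjusted p = 0.0534). Piwil2, a piRNA pathway gene, measured 2.09 ± 0.785 against 10.1 ± 4.68 FPKM, a difference of -1.79 (SD, n = 2 each; limma adjusted p = 0.0626). The median of the 8 was -0.60, with Asz1, which passed the filter only through WT, counted in it. The authors' deposited p-values called 2 of the list as higher and 1 as lower.

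Relatives of the 9 were mostly low: of 22 listed, 19 were in the tables and 10 to 12 were tested. In SL limma called 0 of 10, with 0 higher and 1 lower unadjusted and 0 by the authors' deposited p-values. The lower one, Ifitm5, passed the filter there only through the floxed group, where it was high. In 2i 8 of 12 rose and 3 fell, where 47.9% and 19.7% of all genes did. After scaling 4 rose and 3 fell, where 30.3% and 33.8% of all genes did. Of the 8 that rose unscaled, 2, Ifitm5 and Ifitm10, passed the filter only through the libraries labelled deleted. In overexpression 3 of 11 fell, where 1.65% of all genes did. They were Dppa2, Dppa4 and Dppa5a, which share a naming prefix with Dppa3 and not its protein family. Dppa2, a chromatin factor of pluripotent cells, fell to 16.6 ± 2.77 FPKM in tetON Foxd3 libraries and stood at 43.5 ± 1.76 FPKM in WT libraries (SD, n = 2 each; limma adjusted p = 0.0222), and rose in 2i to 18.4 ± 2.44 FPKM in libraries labelled deleted, against 5.50 ± 0.138 FPKM in floxed libraries (SD, n = 2 each; limma adjusted p = 1.08e-05).

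**Figure D4:**
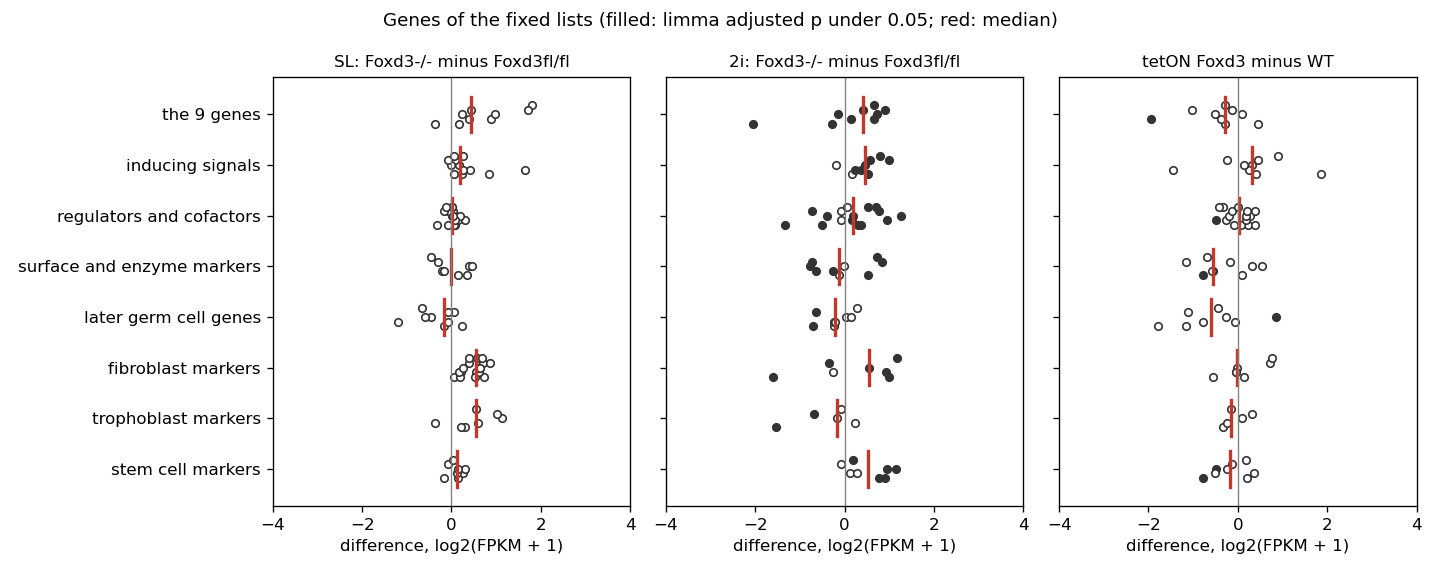
Tested genes of the fixed lists by their difference on log2(FPKM + 1), with red lines at list medians and filled points at a limma adjusted p under 0.05. In SL the median was 0.44 for the 9 genes, 0.55 for fibroblast markers and 0.55 for trophoblast markers, and no gene of these lists is filled there. These medians count Nanos3, Twist2, and Gcm1 with Hand1, which passed the filter only through the SL deleted group, where they were higher.

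Markers of other cell types moved with the SL contrast. For fibroblasts, 16 of 18 tested markers had both deleted libraries above both floxed ones, against 19.7% of all genes. Of the 16, Twist2 passed the filter only through the deleted group. At an unadjusted p under 0.05, 13 were higher, against 6.07% of all genes. Limma called 0 and the authors' deposited p-values 6. Bgn, a matrix proteoglycan, measured 124.5 ± 10.7 FPKM in SL deleted and 74.6 ± 8.61 FPKM in SL floxed libraries (SD, n = 2 each; limma adjusted p = 0.166). In trophoblast, where Tfap2c is also used, 12 markers were in the table and 7 were tested, 2 of them, Gcm1 and Hand1, only through the deleted group where they were high. Of the other 5, 4 lay above and 2 were higher unadjusted. Limma called 0 of the 7 and the authors' deposited p-values 2 of the 12. Trophoblast markers summed to 232 to 264 FPKM in SL deleted and 148 to 184 FPKM in SL floxed libraries, against 22.4 to 37.9 FPKM in the 8 other libraries, with Tpbpa at 0 in all SL libraries. Of that sum, the keratin gene Krt18 alone measured 108 ± 1.30 FPKM in SL deleted and 73.6 ± 9.51 FPKM in SL floxed libraries (SD, n = 2 each). Under 1 FPKM were 5 of the 12 markers in SL deleted and 7 in SL floxed. Eomes was lower on average in SL deleted libraries, at 2.03 against 2.96 FPKM, in groups that overlap. Hand1, a trophoblast and mesoderm factor, measured 2.51 ± 0.249 FPKM in SL deleted and 0.744 ± 0.193 FPKM in SL floxed libraries (SD, n = 2 each). Primitive endoderm markers summed to 12.2 to 13.1 FPKM in SL deleted and 9.95 to 12.4 FPKM in SL floxed libraries, and mesoderm markers to 8.54 to 18.7 against 8.53 to 14.6 FPKM. The part of these cell types in the SL differences of the 9 genes was not tested. In 2i and in overexpression 14 to 16 of the 21 fibroblast markers in the tables were under 1 FPKM, so the 2i and overexpression differences were measured with little fibroblast RNA present, although 4 of 7 tested rose there in 2i, Thbs1 and Col1a1 among them, and 2 fell, Thy1, which passed the filter only through the floxed group, and Mmp2. In 2i, 2 of 5 tested trophoblast markers fell (Ascl2 and Krt7), which became 4 after scaling, and 5 of 8 stem cell markers rose, which became 4 with 1 lower. Of all genes in 2i, 47.9% rose and 19.7% fell, which became 30.3% and 33.8% after scaling. Of 10 primitive endoderm and 8 mesoderm markers in 2i, the filter left 3 each, and Gata4, Gata6, T and Eomes among these passed the filter only through the libraries labelled deleted. Of the other 2, Lama1 rose, which did not hold after scaling (limma adjusted p = 0.106), and Gsc was not called. In overexpression 2 of 8 stem cell markers fell (Nanog and Dppa4), where 1.65% of all genes did. Limma called 0 of 7 fibroblast, 0 of 5 trophoblast, 0 of 4 primitive endoderm and 0 of 1 mesoderm markers. At an unadjusted p under 0.05, 0, 0, 0 and 0 of them were higher and 1, 0, 1 and 0 lower. The lower ones, Bgn and Sox7, passed the filter only through WT, where they were high, and without them 0 were lower.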

How the data were processed

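Gene expression was measured in 6 groups of 2 libraries each, as their titles give them; which deletion table belongs to which medium was taken from the tables' names. Per the submitters' processing notes, the tools were DESeq2, Cufflinks, SAMtools, TopHat2 and FastQC, with GRCm38 and mm10 as builds; their roles and versions are not stated. Per the file headers, the authors deposited FPKM per library, a mean read signal per group, a signed fold change between groups, written here as a ratio, and an unadjusted p-value, rounded to 6 decimals. The mean read signal carries the authors' own scaling. FPKM is not a count, so no count test was run: values of genes with about 1 read did not fall on a single step between libraries (24.3% to 49.2% of them shared the commonest ratio, rounded to 2 decimals), and whole reads were not recovered.

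Here, log2(FPKM + 1) was fitted with limma 3.58.1 (trend) in R 4.3.3 in the 4 libraries of a table (2 residual degrees of freedom), over genes with a mean of at least 1 FPKM in 1 group, with Benjamini-Hochberg adjustment over all of them and a threshold of 0.05, 2-sided. An interaction term over the 8 deletion libraries tested the difference between media. With 2 libraries a group, the smallest 2-sided p of an exact permutation test is 0.3333, so none was run. The fit was tested on simulated data. Alternatives were a pseudocount of 0.1, no filter, median-of-ratios scaling, each library left out, a replicate block, all 12 libraries in one fit, and p-values as the authors deposited them, adjusted over all rows. Genes of the lists given with values were among the 3 of each list with the smallest p in a comparison, apart from Tpbpa. Others are named only for the filter or, for Krt8, as part of a sum. The genes and lists were chosen with earlier results of these data known. Coordinates come from GENCODE M21 (GRCm38), transcripts were compared with BLAST at 90% identity over at least 100 bases, and promoters come from RefSeq (GRCm38.p6).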

Additional observations from a re-analysis of the deposited data

Results flagged for a closer look

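The response to deletion differed between media for 4 of the 9 genes by limma's interaction test, against 23.9% of 12497 genes. Each value is the SL difference minus the 2i difference on log2(FPKM + 1). Of the 4, Nanos3 passed the filter only through the deleted and deleted-labelled groups, where it was high. Pdpn differed by 1.67 (SE 0.23, adjusted p = 0.00485 in limma), with both deleted libraries below both floxed ones in SL and in 2i. Nanos3 differed by 1.15 (SE 0.34, adjusted p = 0.0421 in limma) and Tfap2c by 0.82 (SE 0.20, adjusted p = 0.0207 in limma), with both deleted libraries above both floxed ones in each medium. Ifitm3 differed by 0.38 (SE 0.09, adjusted p = 0.0216 in limma), above in SL and below in 2i. Foxd3 itself differed by -0.97 between the media (SE 0.17, adjusted p = 0.0075 in limma). Without single libraries the limma adjusted p of Tfap2c, Nanos3 and Ifitm3 reached 0.0857, 0.147 and 0.0990. Medium, feeders, the authors' summed mean reads and the Foxd3 difference change together between the SL and 2i libraries and cannot be told apart.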

How the results depend on the processing

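The number of genes called moved by more than 1.5 times under several settings, and the cause was not tested. With no filter it was 0 in SL, 24 in overexpression and 1815 for the difference between media, against 1, 316 and 2987. With all 12 libraries in one fit it was 172 in SL and 1727 in overexpression, and by the authors' deposited p-values 107 and 909. Leaving out 1 library gave 1 to 313 in SL, 6535 to 7791 in 2i, 42 to 342 in overexpression and 683 to 3761 between media. The replicate numbers are not stated to mark a batch. Replicate differences of the 2 groups correlated at 0.605 over genes in SL, -0.0539 in 2i and 0.596 in overexpression. Over all genes a replicate block called 1997 of 12024 in SL and 7566 of 11637 in 2i. It called 2473 of 11972 in overexpression and 5342 of 12497 between media. The counts of the 9 genes are to be read against these. With the block, 8 of the 9 genes passed in SL (all but Dnd1), 9 in 2i, 3 in overexpression (Prdm14, Tfap2c and Dppa3) and 6 between media (Tfap2c, Nanos3, Dppa3, Dnd1, Ifitm3 and Pdpn).

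Sign changes came as follows. Dppa3 in 2i turned to -0.0824 after scaling and to -0.10 by the authors' deposited fold. Leaving out 1 library, Dnd1 ranged from -0.000497 (SL floxed replicate 1 left out) to 0.325 in SL, and in overexpression from -0.594 to 0.015 (WT replicate 1 left out). In overexpression, Ifitm3 ranged from -0.12 (tetON Foxd3 replicate 1 left out) to 0.311 and Pdpn from -0.15 (WT replicate 2 left out) to 1.03. Between media, Kit reached 0.256 and turned to -0.23 without SL deleted replicate 1, -0.11 without SL floxed replicate 2, -0.08 without 2i deleted-labelled replicate 1 and -0.05 without 2i floxed replicate 1. For the 9 genes, 70 of the 90 alternative values in SL, 72 of 90 in 2i, 81 of 90 in overexpression and 82 of 108 between media kept direction and side of the threshold. Depth per library is not known, and 2 libraries a group limit the precision.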
